A study of Mus musculus with 10 samples.

Results

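The genes described here were 7 members of the caspase family, Casp1, Casp2, Casp4, Casp6, Casp8, Casp9 and Casp12, chosen by gene symbol. Each had a row in both tables of RNA-seq values, 7 of 17816 genes at day 7 and 7 of 20007 in adult testis. The study asked what the loss of Rnf20, an E3 ubiquitin ligase for histone H2B, does to Sertoli cells, the somatic nurse cells of the seminiferous tubule. At day 7 after birth, 2 samples of Sertoli cells came from Rnf20 Flox/Flox mice, whose genotype the labels give as WT, and 2 from Amh-Rnf20-/- mice, in which Cre under the Amh promoter deletes the floxed exons in Sertoli cells. These cells were released by enzymes, cultured and passaged, and the adherent cells were used, a selection by adherence and not by a Sertoli cell marker. A second table held whole testis of adult mice, 3 samples labelled WT and 3 labelled RNF20 conditional knockout. Its experiment is not described in the study's text, so neither the driver of Cre nor the age in days is known for it here. The labels do not say that samples came from separate animals, so p-values measure the spread between these samples.

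Caspases are cysteine proteases that cut proteins after aspartate. Initiator caspases are switched on when they gather on a platform, Casp8 under death receptors with Fadd, Casp9 on the apoptosome of Apaf1 and cytochrome c, and Casp2 on the PIDDosome, and effector caspases such as Casp6, which cuts nuclear lamins, then take the cell apart. Inflammatory caspases open the pathway of pyroptosis: Casp1 matures interleukin precursors on inflammasomes, Casp4, also named caspase-11 in the mouse, responds to lipopolysaccharide in the cytosol, and Casp12 sits beside them and has been tied to stress of the endoplasmic reticulum. In the testis, germ cell apoptosis is a normal part of spermatogenesis, while resident macrophages are a usual source of inflammasome transcripts.

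The 3 inflammatory genes lie side by side on chromosome 9 of the mouse genome (RefSeq, GRCm38.p6, the build the authors mapped to). Casp1 spans chr9:5298517-5307281, Casp4 spans chr9:5308849-5336791 and Casp12 spans chr9:5345442-5373034, with gaps of 1567 and 8650 bp between neighbours. The other 4 members are on other chromosomes. Casp8 lies at chr1:58795233-58847503, with Cflar, its catalytically inactive relative and regulator, 36348 bp away. Casp9 lies at chr4:141793612-141815978 and overlaps Cela2a over 1025 bp, Casp2 at chr6:42264902-42282508, and Casp6 at chr3:129901415-129914112, where it overlaps the long noncoding genes Gm46825 and Gm40150. The handling of strand in counting is not given in the sources used here, so reads in the overlaps cannot be assigned with certainty.

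All 7 members matched the RefSeq promoter table, whose windows run from 250 bases before to 50 bases after a start site. The windows fell into a GC-rich set, Casp2, Casp6 and Casp9, with a GC content of 63.7%, 62.0% and 66.0% and 26, 16 and 28 CpG dinucleotides, and an AT-rich set, with a GC content of 48.0% for Casp1, 42.0% for Casp4, 41.0% for Casp12 and 42.0% for Casp8 and 3 to 5 CpG dinucleotides. Over all 32851 windows the medians were 52.7% and 7. The Casp8 window, chr1:58802252-58802551, lies inside the gene span given above and not at its start at 58795233. Its values and motif matches thus do not describe the 5′ end of that span. The windows of the inflammatory cluster and of a GC-rich member of each apoptotic role are printed 5′ to 3′ on the plus strand, which is the strand of each gene, to show this contrast, for Casp4 the first of its 2 windows. Capitals mark matches to the searched motifs.
Casp1, chr9:5298267-5298566: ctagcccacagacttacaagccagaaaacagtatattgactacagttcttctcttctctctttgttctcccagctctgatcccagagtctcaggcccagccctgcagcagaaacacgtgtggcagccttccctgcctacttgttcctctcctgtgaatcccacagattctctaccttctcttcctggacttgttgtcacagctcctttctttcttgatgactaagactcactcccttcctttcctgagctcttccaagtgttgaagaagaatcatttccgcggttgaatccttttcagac
Casp4, chr9:5308599-5308898: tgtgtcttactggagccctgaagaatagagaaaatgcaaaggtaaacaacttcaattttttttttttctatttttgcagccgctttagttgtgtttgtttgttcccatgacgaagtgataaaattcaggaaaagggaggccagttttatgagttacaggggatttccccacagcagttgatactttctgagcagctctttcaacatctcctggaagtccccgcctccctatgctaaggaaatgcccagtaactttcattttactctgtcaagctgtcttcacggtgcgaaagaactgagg
Casp12, chr9:5345226-5345525: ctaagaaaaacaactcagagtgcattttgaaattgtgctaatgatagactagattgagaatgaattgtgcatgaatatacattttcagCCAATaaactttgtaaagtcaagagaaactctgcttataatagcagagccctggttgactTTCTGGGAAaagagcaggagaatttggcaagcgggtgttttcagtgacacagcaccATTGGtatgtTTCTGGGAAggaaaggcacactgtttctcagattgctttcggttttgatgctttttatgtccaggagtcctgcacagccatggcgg
Casp6, chr3:129901165-129901464: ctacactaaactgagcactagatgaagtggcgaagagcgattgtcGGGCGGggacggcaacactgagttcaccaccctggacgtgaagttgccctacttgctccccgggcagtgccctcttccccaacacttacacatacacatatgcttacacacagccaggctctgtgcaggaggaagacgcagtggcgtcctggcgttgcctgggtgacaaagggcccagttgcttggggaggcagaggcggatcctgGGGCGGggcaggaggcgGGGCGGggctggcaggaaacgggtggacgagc
Casp9, chr4:141793362-141793661: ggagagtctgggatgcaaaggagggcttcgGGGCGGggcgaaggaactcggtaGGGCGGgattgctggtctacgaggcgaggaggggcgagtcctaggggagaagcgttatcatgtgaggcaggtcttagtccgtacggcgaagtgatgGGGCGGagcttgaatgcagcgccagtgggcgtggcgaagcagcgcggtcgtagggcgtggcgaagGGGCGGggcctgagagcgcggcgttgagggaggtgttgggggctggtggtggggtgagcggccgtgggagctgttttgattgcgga
Motifs were searched on both strands by their letters alone. The GC box, GGGCGG, was present in 35.7% of all windows of this length. A second promoter box, spelled CCAAT, was present in 37.4%, and the TATA box, spelled TATAAA, in 13.6%. The core bound by STAT factors, TTCNNNGAA, was present in 8.3%, an interferon response core in 3.44% and an NF-kB motif in 0.411%. Casp12 held TTCTGGGAA at -102 and at -36 bases from the start site, with a CCAAT match at -162 and one on the other strand at -46. Casp9 held 4 GC boxes and Casp6 held 3, Casp2 held 2 GC boxes and 2 CCAAT matches, and Casp8 held 1 CCAAT match. The windows of Casp1 and Casp4 held none of these exact spellings, and no matches overlapped. The printed Casp4 window does hold ggggatttcc, close to the NF-kB letters but not a match. Looser spellings were not searched, so a lack of matches does not mean that a site is absent. A match is a description of the sequence and no binding was measured.

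Depth was close to even across samples, with 17477268 to 17705347 estimated counts at day 7 and 15431912 to 16574144 in adult testis. At day 7, Rnf20 itself stood at 16.6 and 16.0 FPKM (fragments scaled by gene length and library size) in the Rnf20 Flox/Flox samples and at 10.3 and 12.6 FPKM in the Amh-Rnf20-/- samples. The difference on the log2 scale was -0.49 (SE 0.12, edgeR adjusted p = 0.222). In adult testis Rnf20 was not lower in the samples labelled knockout, with 4.89, 3.32 and 4.09 FPKM in the WT samples and 9.16, 5.76 and 9.85 FPKM in the others. On TMM-scaled counts the groups overlapped, with a log2 fold change of 0.12 (edgeR adjusted p = 0.688). The Rnf20 level thus does not check the adult labels. Their groups differ widely in the germ cell markers given below, all 11 spermatid markers being lower in the samples labelled knockout. By histology, the study reports that spermatids were missing from testes of Amh-Rnf20-/- mice, the direction these labels give. Each direction given for adult testis is that of the samples as labelled. Reads were counted over the whole gene, exons outside the deletion and cells without Cre included. The first sample labelled knockout also stood apart in adult testis, with a summed spermatocyte marker level of 2.54 FPKM against 138 and 243 in the other two. At day 7 the first Amh-Rnf20-/- sample lay farther from the controls than the second, with a chi-square per degree of freedom of 58.8 to 60.7 against 21.9 to 23.8.

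At day 7 the initiator Casp8 was the highest of the 7 genes and the one with the largest drop in FPKM. It measured 27.1 and 27.3 FPKM in the Rnf20 Flox/Flox samples and 16.3 and 21.7 FPKM in the Amh-Rnf20-/- samples. Both knockout samples lay below both controls, and the log2 fold change was -0.47 (SE 0.15, edgeR adjusted p = 0.288). Casp9, the initiator of the mitochondrial route, measured 6.38 and 7.07 FPKM in the controls and 6.50 and 6.60 in the knockout samples, and the groups overlapped. Casp2, the PIDDosome initiator, measured 7.12 and 8.15 FPKM against 6.55 and 6.31 FPKM, so its knockout samples were the lower ones, with a log2 fold change of -0.21 (SE 0.12, edgeR adjusted p = 0.468). The effector Casp6 measured 16.1 and 17.1 FPKM in the controls and 12.3 and 13.2 FPKM in the knockout samples. Its groups did not overlap either, and its log2 fold change was -0.34 (SE 0.11, edgeR adjusted p = 0.293).

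The inflammatory genes differed in the other direction at day 7. Casp4 measured 2.35 and 1.86 FPKM in the Rnf20 Flox/Flox samples and 3.94 and 3.15 FPKM in the Amh-Rnf20-/- samples. Both knockout samples were higher, with a log2 fold change of 0.77 (SE 0.26, edgeR adjusted p = 0.295). Casp12 measured 8.10 and 7.00 FPKM against 8.58 and 8.32 FPKM, a log2 fold change of 0.22 (SE 0.14, edgeR adjusted p = 0.509). Casp1 was near the limit of detection, with 1 estimated count in each control and 7 and 3 in the knockout samples, or 0.05, 0.05, 0.32 and 0.14 FPKM. It fell under the minimum level for testing, and the ratio of its summed counts, 10 against 2 and scaled for library size, was 4.99 with an exact 95% interval of 1.06 to 46.8 that covers counting error only.

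None of these day 7 differences passed the test. Of the 6 members tested, 0 were called at an adjusted p under 0.05 by edgeR's quasi-likelihood test, as were 0% of all 12880 genes tested. Limma called 0 members and no other gene, and DESeq2 called 0 members while calling 388 genes higher and 193 lower. At an unadjusted p under 0.05, 3 of the 6 passed, Casp8 and Casp6 on the lower side and Casp4 on the higher, where 6.99% and 8.52% of all genes passed. Groups that did not overlap on scaled counts were found for 3 members on the lower side and 2 on the higher, against 26.1% and 24.8% of all genes. On FPKM, where the same 5 members did not overlap, the shares of all genes were 31.1% and 19.7%. The median log2 fold change was -0.10 over the 6 members and -0.00 over all genes. The calls depended on the knockout samples: without the second one, Casp8 (log2 fold change -0.68, adjusted p = 0.000152), Casp6 (-0.38, adjusted p = 0.0277) and Casp4 (0.93, adjusted p = 0.0213) passed in edgeR, along with 2731 genes called higher and 2434 lower over the table. Without the first one, Casp8 alone of the members passed (-0.27, adjusted p = 0.0175), with 1430 genes called higher and 1620 lower. The lone knockout sample in such a fit was assumed to vary like the controls.

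**Figure D1:**
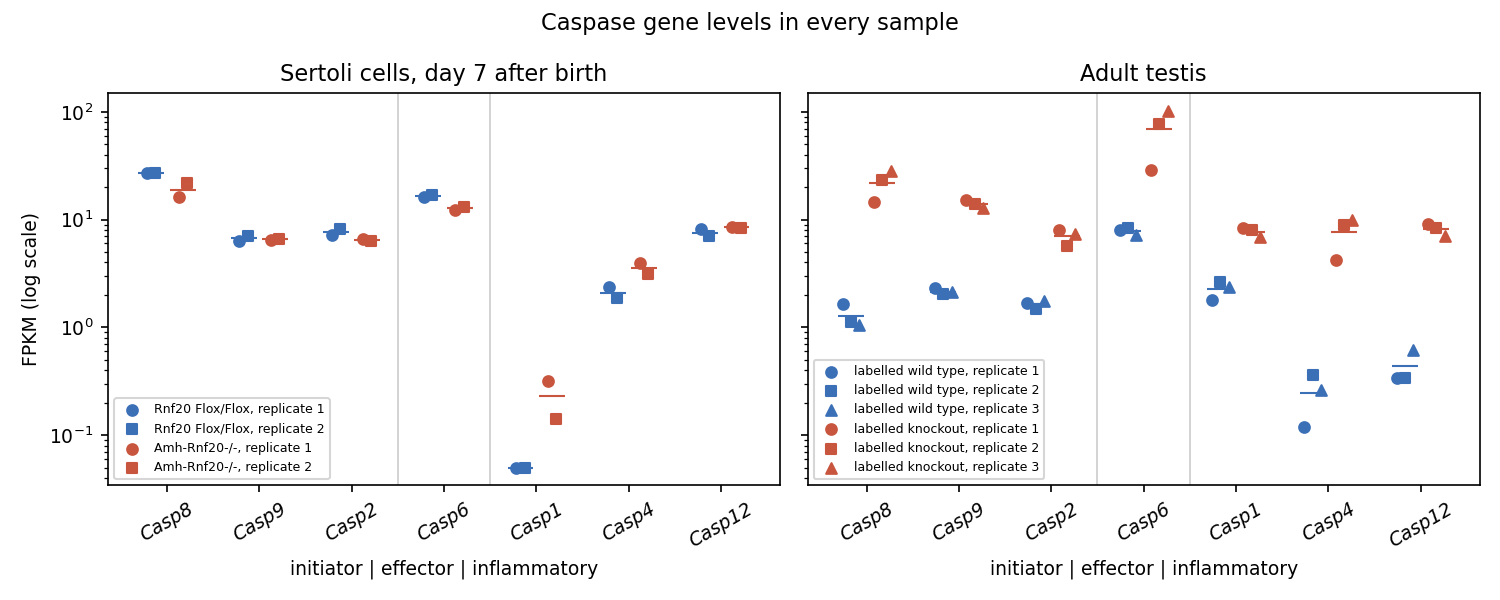
Level of each caspase gene in FPKM on a log axis, one point per sample (shape gives the replicate) and a short line for the mean of each group, with Sertoli cells of day 7 on the left and adult testis on the right. At day 7 the groups lie close, with Casp8 at 27.1 and 27.3 against 16.3 and 21.7 FPKM, while in adult testis each sample labelled knockout lies above each sample labelled WT for each of the 7 genes.

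Markers of several cell types also lay apart between the day 7 groups, though none was called in edgeR. On scaled counts, groups did not overlap for 26.1% of all genes on the lower side and 24.8% on the higher. The summed level of 12 Sertoli cell markers was 1830.55 and 1662.24 FPKM in the Rnf20 Flox/Flox samples and 923.69 and 1350.18 FPKM in the Amh-Rnf20-/- samples, and 9 of the 12 were below both controls, among them Sox9, at 41.8 and 39.4 against 10.2 and 25.7 FPKM. All 6 stromal fibroblast markers and all 7 peritubular myoid markers lay above both controls, by a median of 0.88 and 0.95 on the log2 scale. The 12 macrophage markers summed to 33.1 and 37.4 FPKM in the controls and to 64.6 and 34.3 FPKM in the knockout samples, so the first knockout sample was high and the second was within the control range. Cx3cr1 was listed at 0 in both controls. The Leydig markers summed to 156 and 161 FPKM in the controls against 302 and 214 FPKM. Germ cell markers lay lower, with 9 of 11 spermatogonium markers below both controls (summed level 214 and 207 against 148 and 144 FPKM) and all 4 spermatocyte markers tested below them too. In bulk samples, fewer cells of a type and less RNA per cell cannot be told apart. The part of cell makeup in the caspase differences was not tested.

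Set against the mean log2 level of the Sertoli list within each sample, the Casp8 difference at day 7 had the other sign, 0.24 with overlapping groups, and Casp6 and Casp2 overlapped as well. On that scale Casp4 was 1.50 higher, Casp12 was 0.94 higher and Casp9 was 0.74 higher in both knockout samples. Set against the stromal fibroblast list, Casp8 was 1.48 lower, Casp6 was 1.32 lower and Casp4 was 0.22 lower in both knockout samples. Setting levels against a list shifts all genes of a sample alike, so the changes of direction restate how each list differed between the groups. These relative values were chosen after the levels were seen and carry no test.

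In adult testis the initiator Casp8 measured 1.65, 1.11 and 1.06 FPKM in the samples labelled WT and 14.7, 23.3 and 28.2 FPKM in the samples labelled knockout. The groups were far apart, with a log2 fold change of 3.27 (SE 0.30, edgeR adjusted p = 0.000137). Casp9 measured 2.30, 2.03 and 2.11 FPKM against 15.3, 13.9 and 12.7 FPKM, and rose by 1.85 on the log2 scale (SE 0.15, edgeR adjusted p = 9.67e-05) with the tightest error of the 7 genes. Casp2 measured 1.70, 1.47 and 1.75 FPKM against 7.99, 5.72 and 7.28 FPKM, a log2 fold change of 1.24 (SE 0.19, edgeR adjusted p = 0.00128). Among the initiators Casp8 thus had the largest fold change and Casp2 the smallest.

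Casp6, the effector, had the highest level and the widest spread in FPKM in adult testis. It measured 8.02, 8.32 and 7.14 FPKM in the samples labelled WT and 29.0, 76.4 and 101.07 FPKM in those labelled knockout. The first sample labelled knockout was the low one, and the log2 fold change was 2.25 (SE 0.42, edgeR adjusted p = 0.00293), or 2.72 (adjusted p = 3.28e-07) without that sample.

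The inflammatory genes split in adult testis. Casp1 measured 1.78, 2.63 and 2.39 FPKM against 8.27, 7.92 and 6.94 FPKM, the smallest change of the 7, with a log2 fold change of 0.91 (SE 0.26, edgeR adjusted p = 0.0158). Its call was lost in edgeR without the first control (0.73, adjusted p = 0.0560) and without the third control (0.92, adjusted p = 0.0532). Casp4 had 2, 5 and 5 estimated counts in the samples labelled WT and 80, 152 and 175 in those labelled knockout, or 0.12, 0.36 and 0.26 against 4.24, 8.83 and 9.86 FPKM. This was the largest fold change of the 7 in edgeR, 4.23 on the log2 scale (SE 0.49, adjusted p = 0.000349), but it rests on 12 control counts in all. In limma on log2(FPKM + 1), which understates changes from low levels, Casp4 (2.73) came after Casp8 (3.31) and Casp6 (2.81). Casp12 measured 0.34, 0.34 and 0.62 FPKM against 9.16, 8.29 and 6.98 FPKM, a log2 fold change of 3.45 (SE 0.32, edgeR adjusted p = 0.000149). In the count-based fits the direct neighbours Casp1 and Casp4, 1567 bp apart, thus had the smallest and the largest fold change.

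All 7 members were called higher in the samples labelled knockout, where 40.9% of the 15919 genes tested were called higher and 40.6% lower. Casp4 and Casp12 reached the minimum level in too few controls to be tested without the samples in which they were high, so the count is a description. The groups of each member also did not overlap, which held on the higher side for 42.4% of all genes on scaled counts and 54.9% on FPKM, and on the lower side for 43.1% and 32.4%. The median log2 fold change was 2.25 over the members and 0.01 over all genes. Scaling weighed on these sizes. With total counts in place of TMM factors, which were 0.710 to 0.761 in the samples labelled WT and 1.27 to 1.42 in those labelled knockout, the median of all genes was 0.87 and that of the members was 3.13, so the members lay above the median by a like margin. On that scale 8615 genes were called higher and 4775 lower, beside 6503 and 6466 with TMM factors, and Casp1, at 1.76, was the member closest to the shifted median. The study's thresholds ask for a log2 fold change beyond 1 in size and for an adjusted p under 0.001. Of the members 4 passed them on the higher side (Casp8, Casp9, Casp4 and Casp12), where 23% of all genes passed on the higher and 23.7% on the lower side. Without the first sample labelled knockout the count at an adjusted p under 0.05 was still 7.

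**Figure D2:**
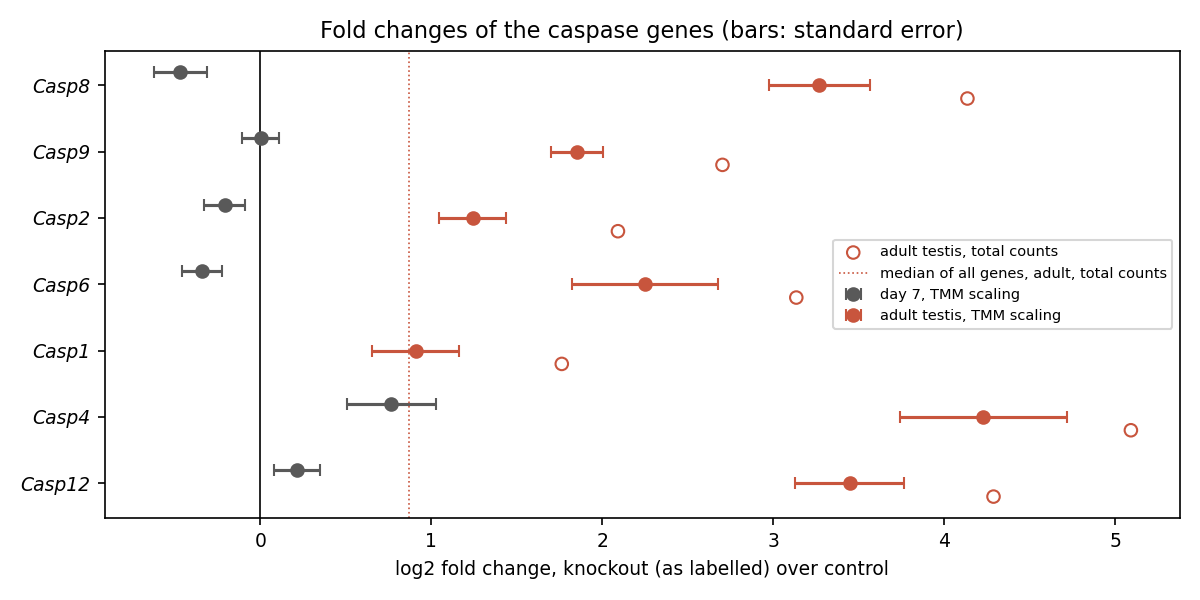
Log2 fold change of each caspase gene with its standard error, in Sertoli cells of day 7 (grey) and adult testis (filled red, TMM scaling), and for adult testis also with total counts (open red) beside the median of all genes on that scale (dotted line). Day 7 values run from -0.47 to 0.77, adult values from 0.91 to 4.23, and Casp1 has no day 7 point because it was not tested there.

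The adult samples differed widely in cell makeup as read from markers. All 11 spermatid markers fell, by a median of 9.06 on the log2 scale, and had a summed level of 124758 to 193430 FPKM in the samples labelled WT against 4.20 to 101.69 FPKM in those labelled knockout. All 12 macrophage markers rose, with a median of 3.62 and a summed level of 71.9 to 82.2 against 1843.23 to 2904.47 FPKM, as did all 7 Leydig markers (3.75) and all 6 stromal fibroblast markers (4.40). Of the 12 Sertoli markers 6 rose and 1 fell, and their sum went from 701 to 878 FPKM up to 2966.12 to 6715.99 FPKM. The median fold change of the caspase genes thus lay between those of the Sertoli list, 1.63, and the macrophage list. So did the medians of the peritubular myoid (2.24), lymphocyte (2.46) and endothelial (2.95) lists. The part of cell makeup in the rise of the caspase genes was not tested.

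Across the 3 samples labelled knockout, the members followed 2 orders. Casp8, Casp6 and Casp4 were lowest in the first sample and highest in the third, the order of the summed Sertoli markers, 2966.12, 5828.0 and 6715.99 FPKM, and also of the summed spermatogonium markers (49.9, 310.49 and 450.35 FPKM) and spermatocyte markers. Most of the Sertoli sum is Clu, at 1856.83, 4410.99 and 4953.39 FPKM, and Inha, Gata4 and Trf in that list did not follow the order, nor did Kit, Zbtb16 and Gfra1 in the spermatogonium list. Casp9, Casp1 and Casp12 were highest in the first sample and lowest in the third, the order of the summed macrophage markers, 2904.47, 2390.26 and 1843.23 FPKM, and also of the summed stromal fibroblast markers (3390.42, 1327.06 and 1303.23 FPKM) and endothelial markers (51.2, 33.3 and 31.3 FPKM). Much of the macrophage sum is Lyz2, at 1677.29, 1336.99 and 912.04 FPKM, and Adgre1, Cd68, Cx3cr1, Ptprc, Itgam and Fcgr1 in that list did not follow the order. The stromal sum is mostly Dcn, at 3024.32, 1109.4 and 1052.83 FPKM, and Col1a1, Col1a2, Col3a1 and Pdgfra did not follow it, nor did the endothelial Pecam1, Kdr and Tek. These are thus orders of the sums and not of every marker in a list. Casp2 followed neither, with its lowest level in the second sample. The split cut across the roles, since Casp4 and its 2 cluster neighbours fell on opposite sides, and with 3 samples it is a description with no test.

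**Figure D3:**
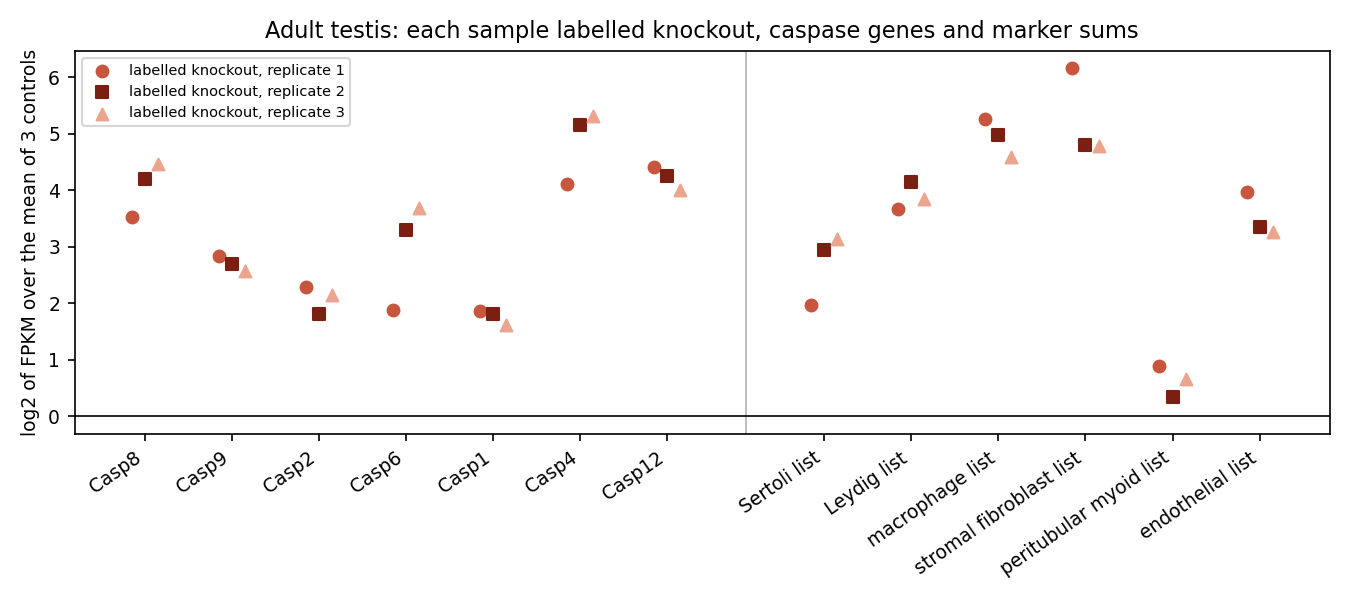
Each of the 3 adult samples labelled knockout, as log2 of its FPKM over the mean of the 3 samples labelled WT, for the caspase genes (left) and for the summed markers of 6 cell types (right). The first sample is the lowest of the 3 for Casp8, Casp6, Casp4 and the Sertoli list and the highest for Casp9, Casp1, Casp12 and the macrophage list.

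Relative to the mean log2 level of the 12 Sertoli markers in each adult sample, Casp4 was 2.58 higher, Casp8 and Casp12 were 2.11 higher and Casp6 was 1.07 higher in the samples labelled knockout, without overlap. The groups overlapped for Casp9, Casp2 and Casp1 on that scale. Relative to the 12 macrophage markers, Casp1 was 2.70 lower, Casp2 was 2.42 lower, Casp9 was 1.79 lower, Casp6 was 1.49 lower and Casp12 was 0.45 lower, and the groups of Casp8 and Casp4 overlapped. These values were also chosen after the levels were seen.

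The order of the levels, per length in FPKM, differed between the experiments. In the day 7 controls it ran Casp8, Casp6, Casp2, Casp12, Casp9, Casp4 and Casp1, where Casp2, Casp12 and Casp9 could not be separated from their neighbours in that run because their ranges overlapped. In the Amh-Rnf20-/- samples Casp12 was above Casp9 and Casp2, which overlapped each other, and the rest of the order was as in the controls. In the adult samples labelled WT it ran Casp6, Casp1, Casp9, Casp2, Casp8, Casp12 and Casp4, with overlaps between Casp1 and Casp9, between Casp2 and Casp8 and between Casp12 and Casp4. In the samples labelled knockout Casp6 led, Casp8 and Casp9 followed with overlapping ranges, and Casp12, Casp1, Casp4 and Casp2 each overlapped the next. The tables were made separately, so levels are not compared across them.

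The summed FPKM of the 7 genes was 67.2 and 68.6 in the day 7 controls and 54.5 and 59.4 in the knockout samples. Casp8 made up 40.1% ± 0.322 (SD, n = 2) of it in the controls and 33.2% ± 4.67 (SD, n = 2) in the knockout samples. Casp4 made up 3.10% ± 0.553 against 6.27% ± 1.36, and Casp12 11.1% ± 1.30 against 14.9% ± 1.23. By role, the inflammatory genes held 15.6% and 13.0% of the sum in the controls and 23.6% and 19.6% in the knockout samples, without overlap, while the initiators held 60.4% and 62.1% against 53.8% and 58.2%. A share can move because another member does, and these shares carry no test.

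In adult testis the sum was 15.3 to 16.3 FPKM in the samples labelled WT and 88.7 to 173.06 FPKM in those labelled knockout. The part of Casp8 in it went from 8.04% ± 2.02 (SD, n = 3) to 16.3% ± 0.236 (SD, n = 3), and Casp4 went from 1.55% ± 0.740 to 5.53% ± 0.682. Casp1 went from 14.3% ± 2.73 to 6.27% ± 2.74 and Casp2 from 10.4% ± 1.22 to 5.73% ± 2.85, and none of these 4 pairs of groups overlapped. Casp6, Casp9 and Casp12 overlapped between the groups. The inflammatory genes as a whole held 14.1% to 21.3% against 13.7% to 24.4%, which overlap.

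**Figure D4:**
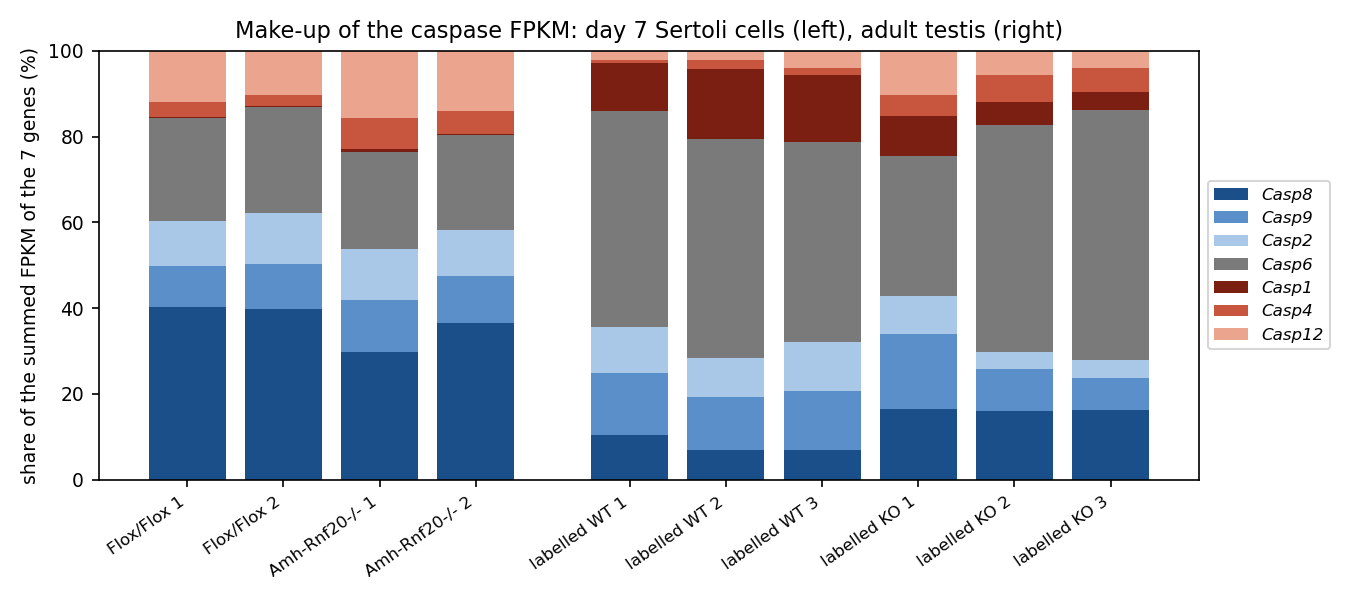
Share of each caspase gene in the summed FPKM of the 7 genes, one bar per sample, with initiators in blue, the effector Casp6 in grey and inflammatory genes in red. At day 7 the red part is larger in both Amh-Rnf20-/- samples (23.6% and 19.6%) than in both controls (15.6% and 13.0%), and in adult testis Casp6 holds 32.7% of the first sample labelled knockout and 52.9% and 58.4% of the others.

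Members were also set against the partner each works with, as a ratio of FPKM within a sample. Casp8 over Cflar was 3.12 and 3.15 in the day 7 controls and 1.98 and 2.76 in the Amh-Rnf20-/- samples, with Cflar at 7.86 to 8.69 FPKM throughout. Casp4 over Gsdmd, the pore-forming protein it cuts, was 0.0629 and 0.0490 against 0.176 and 0.0998. Neither of these ratios overlapped between the day 7 groups. Casp9 over Apaf1 overlapped at day 7 and in adult testis, where it was 7.19, 7.25 and 5.86 in the samples labelled WT and 7.78, 7.58 and 5.53 in those labelled knockout, so this pair kept a like ratio while both genes rose. Casp1 over its adaptor Pycard was lower in the samples labelled knockout, at 1.51, 1.57 and 1.33 against 3.71, 4.24 and 8.24, since Pycard rose more than Casp1. In the samples labelled WT, however, Pycard stood at 0.48, 0.62 and 0.29 FPKM and Apaf1 at 0.32, 0.28 and 0.36 FPKM. These levels are near or under the minimum of 0.5 FPKM, so the WT ratios to Pycard and Apaf1 are imprecise. Ratios of Casp8 to Cflar and of Casp4 to Gsdmd overlapped in adult testis.

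The wider pathways were read from 6 lists of 56 genes in all. At day 7, 0 of the 44 tested were called in edgeR, 3 had an unadjusted p under 0.05 (Dffb on the lower side, Tnfrsf10b and Ddit3 on the higher) where 6.99% and 8.52% of all genes passed, and the median log2 fold change was 0.06. Limma and DESeq2 called 0 of them as well, DESeq2 beside its 388 and 193 calls over the table. In adult testis 34 of the 50 tested rose and 7 fell, with a median of 1.67, beside 40.9% and 40.6% of all genes. With total counts 40 rose and 6 fell, beside 8615 genes called higher and 4775 lower of the 15919 in the table. Some that rose, among them Tnf, Nlrp3 and Apaf1, reached the minimum level in no control. They were tested only through the samples in which they were high, so these counts are a description. Casp14 was not analysed in adult testis and Mefv not at day 7.

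Among the genes that act with the initiators in adult testis, 9 of 11 tested in the death receptor list rose and 1 fell, with a median of 2.39. Some that rose, among them Fas, Cflar and Tnf, reached the minimum level in too few controls. They could not have been tested without the samples in which they were high. Fas, a receptor that recruits Casp8, went from 0.20, 0.70 and 0.35 FPKM to 11.8, 9.27 and 9.34 FPKM (log2 fold change 3.92), and the adaptor Fadd rose by 1.48 and Cflar by 3.32. The ligand Tnf rose from 0.04 FPKM in one control and 0 in the others to 0.81, 1.19 and 0.88 FPKM. Tnfrsf10b, the receptor of the ligand Tnfsf10, was the member that fell, by 1.99. Of the 10 genes of the apoptosome and the inhibitor of apoptosis family, 6 rose and 3 fell. Apaf1, which was under the minimum level in every control, rose by 1.81, and the inhibitors Xiap and Birc3 rose by 3.50 and 4.12. The 3 that fell were Cyct, the cytochrome c of the testis, by 5.03, Birc5, a mitotic member of the family, by 3.92, and Diablo, an antagonist of the inhibitors, by 2.84, while the somatic cytochrome gene Cycs rose by 0.99. In the list of the PIDDosome and p53, Cradd, the adaptor of Casp2, rose by 1.35 and Trp53 by 1.82, Mdm2 fell by 1.89, and Pidd1, the scaffold, was not called (-0.66, edgeR adjusted p = 0.0538, and 0.20 under total counts).

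The inflammasome list had 6 genes that rose and 1 that fell of 10 tested, with a median of 2.40. Here too some that rose, among them Nlrp3 and Pycard, were tested only because the samples labelled knockout were high. The sensor Nlrp3 rose from 0.00, 0.02 and 0.05 FPKM to 0.91, 1.07 and 0.64 FPKM, Pycard rose by 2.63 on the log2 scale, and the Casp1 substrates Il1b and Il18 rose by 2.27 and 2.52. Ninj1, which acts in the final rupture of the plasma membrane, rose by 2.73. The sensor Nlrc4 fell by 2.26, and Gsdmd missed the threshold at 1.50 (edgeR adjusted p = 0.0501). In the list of stress of the endoplasmic reticulum 7 of 9 rose and 1 fell: the sensors Eif2ak3 and Ern1 rose by 3.70 and 1.82 and Capn1 and Capn2, calpains of a family reported to cut Casp12, by 3.28 and 2.61, and the factor Ddit3 fell by 1.19. Eif2ak3 also reached the minimum level in too few controls to be tested without the samples in which it was high. The chaperone Hspa5 was not called, with -0.12 under TMM scaling and 0.73 under total counts.

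**Figure D5:**
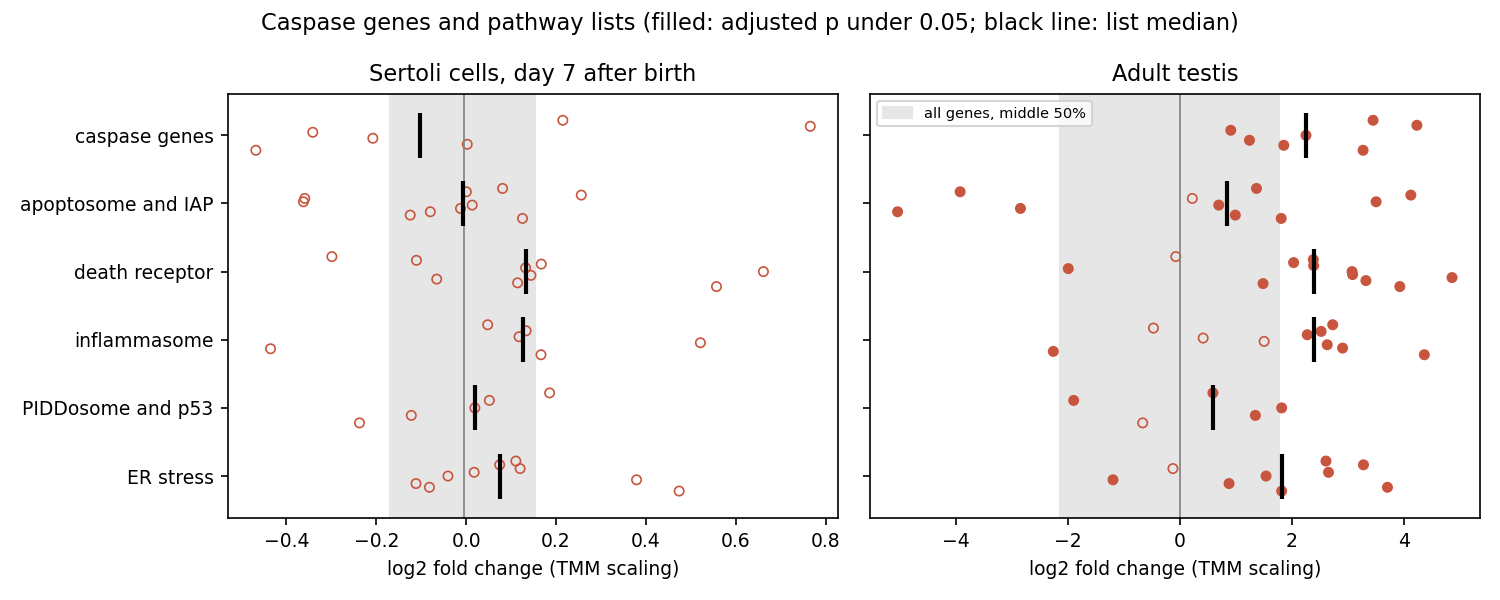
Log2 fold change (TMM scaling) of each tested gene of the caspase set and of 5 of the 6 pathway lists, at day 7 (left) and in adult testis (right), with filled points for an adjusted p under 0.05, a black line for the list median and a grey band for the middle of all genes tested. No point is filled at day 7, and in adult testis the caspase median is 2.25 beside medians of 0.59 to 2.40 for the lists.

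The gene with the most similar profile over the 6 adult samples was found for each member by the root mean square distance between centred log2 levels, among 15919 genes. It was Evi2b for Casp8 (distance 0.124), Pdcl for Casp9 (0.0502), Afg1l for Casp2 (0.0607), Cgn for Casp6 (0.105), Gm10778 for Casp1 (0.1), Gpr137b for Casp4 (0.187) and Lamc1 for Casp12 (0.106). Caspase genes were not each other's nearest neighbours. The nearest caspase to Casp4 was Casp12, at a distance of 0.626 with 288 other genes nearer, and the nearest to Casp1 was Casp2, at 0.311 with 946 genes nearer. Casp4 thus had fewer genes nearer than a family member than the other 6 had, for which the number was 946 to 1707. This count is not a closeness to the family: the Casp4 distance was larger than that of every other member but Casp6 (0.64). The Casp4 profile also rests on 12 control counts.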

How the data were processed

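RNA-seq of 10 mouse samples was analysed, 4 of Sertoli cells at day 7 and 6 of adult testis, grouped by their labels. The methods name 3 individuals in each day 7 group while 2 samples of each were analysed here, and one protocol label speaks of adult tissue for every sample. The authors mapped reads from BGISEQ libraries selected with oligo(dT) to GRCm38.p6 by HISAT and to reference genes by Bowtie2 and quantified them by RSEM; versions and strand handling are not given in the sources used here. The deposited columns hold estimated counts, FPKM values scaled by gene length and depth, and TPM values, which the authors' tables give beside them. Between 10.7% and 13.2% of the estimated counts in a sample were not whole, and they were rounded. Another 20 columns of the adult table held no value and were not used.

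Each table was tested on its own in edgeR 4.0.16 (R 4.3.3) with the quasi-likelihood test, TMM scaling and Benjamini-Hochberg adjustment over all genes that reached 0.5 FPKM in 2 (day 7) or 3 (adult) samples or more, 12880 and 15919 genes. A standard error is the log2 fold change over the root of the test statistic. A call is an adjusted p under 0.05. Alternatives were DESeq2 1.42.0 and its size factors, limma 3.58.1 on log2(FPKM + 0.1) and log2(FPKM + 1), total counts, other filters, a replicate block, the study's thresholds and each sample left out; TPM was used for shares. The 7 genes and the pathway and marker lists were chosen with earlier results of these data known. Named genes were the members, Rnf20, and in each pathway list the called gene with the largest change and the genes tied directly to a caspase. Additional named genes were chosen after their values were seen, as were the ratios, shares by role and values relative to marker lists. Some genes of the lists are not reported here by name. Promoter windows came from RefSeq (GRCm38.p6).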

Additional observations from a re-analysis of the deposited data

Results flagged for a closer look

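For 3 members and 8 pathway genes, every knockout sample lay on one side of its controls at day 7 and every sample labelled knockout lay on the other side in adult testis, on TMM-scaled counts. These were 11 of the 50 member and pathway genes tested in both tables, where 18.3% of the 12177 genes tested in both showed such a pattern (11.6% lower at day 7 and higher in adult testis, 6.7% the other way round). The tables were scaled separately and the difference between the experiments was not tested. Of the members, Casp8 had a log2 fold change of -0.47 at day 7 and 3.27 in adult testis, Casp6 had -0.34 and 2.25, and Casp2 had -0.21 and 1.24. Lower at day 7 and higher in adult testis were also Dffb (-0.53 and 0.995), Xiap (-0.36 and 3.50), Gsdmd (-0.44 and 1.50), Ripk3 (-0.11 and 2.38) and Atf6 (-0.11 and 0.88). The other way round were Tnfrsf10b (0.66 and -1.99), Ddit3 (0.38 and -1.19) and Hspa5 (0.12 and -0.12), and these depended on scaling: under total counts Hspa5 turned to 0.73 in adult testis, Ddit3 was -0.34 and Tnfrsf10b was -1.13, and on FPKM the adult groups of Tnfrsf10b overlapped. The day 7 values of these genes did not pass the test. Groups of 2 and 3 samples are too small for a check of single samples that stand out.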

How the results depend on the processing

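The numbers of the members called in adult testis (7 higher, 0 lower) stayed at 6 to 7 and 0 when a sample was left out, and moved under the study's thresholds, where 4 members, 22 pathway genes that rose (34 before) and 4 that fell (7 before) passed. With a sample left out, the pathway counts were 32 to 38 and 7 to 8. At day 7, leaving out a sample gave 0 to 1 member higher and 0 to 2 lower, and 0 to 12 pathway genes higher and 0 to 9 lower, where the full fit gave 0 for each, while the same fits called 0 to 2731 genes higher and 0 to 2434 lower over the table; the calls came when the first or the second knockout sample was left out. Casp9 at day 7 had a value near 0 that turned sign with total counts (-0.0367), no filter (-0.00476), limma on FPKM + 0.1 (-0.0357) and on FPKM + 1 (-0.0316) and without the first control, in a range of -0.0654 to 0.0719 with a sample left out. The cause was not tested. The other members kept their direction under the alternatives run. Correlations between samples of the same replicate number were small, 0.0178 to 0.0371, and cannot settle whether these numbers pair the samples. At day 7, with 2 samples per group, all pairs share the same value apart from its sign. With the replicate as a block 0 members were called at day 7 and 7 in adult testis, where 33 pathway genes rose and 7 fell. Over the whole tables, that fit called 0 genes at day 7 and 6061 higher and 6148 lower in adult testis. Each of the 3 adult pairs was the best match of its own number, a hint from the data alone. Depth limits Casp1 at day 7 and Casp4 in the adult controls.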
